A study of Mus musculus with 663 samples.

Results

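The somatic cells of the mouse ovary were compared at E11.5 and E13.5 (E for embryonic day), on either side of the time at which the gonad takes on its sex. Of the 662 cells of the series, 212 entered, 53 from each of 4 captures (chip runs of the C1 microfluidic system) out of 12 captures in all. The E11.5 captures were named 20140708 and 20140901 in the sample titles, and the E13.5 captures 20140414 and 20140709. They are called first and second in that order. All 4 carried the same sequencing series in their titles, so neither a term for the series nor any E12.5 cell entered the comparison. All cells of both stages came from XX gonads of mice of mixed background carrying the NR5A1-eGFP reporter, were sorted live for eGFP and were captured on small chips, without any treatment. The reporter keeps cells in which the Nr5a1 promoter is active and leaves out the rest of the gonad, and the labels do not say how many embryos or litters gave each capture.

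At E11.5 the gonad of either sex is a ridge of proliferating cells that can still form ovary or testis. In the XX gonad some of these cells become pregranulosa cells, the supporting cells that later enclose the oocytes, while others stay as interstitial progenitors from which stromal and steroid-producing cells arise. Known features of the pregranulosa state are the transcription factors Foxl2 and Runx1, signalling through Wnt4 and Rspo1, the activin inhibitor Fst and exit from the cell cycle.

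Factors that define the early gonad were present in all 4 captures at like levels. Nr5a1, the nuclear receptor gene behind the reporter (chr2:38692656-38714542 in GRCm38), had capture means of 43.3 and 31.4 RPKM at E11.5 and 38.1 and 55.2 RPKM at E13.5 (RPKM, reads per kilobase of gene scaled to library size; a unit inferred from the values; mean over the 53 cells). Wt1, Gata4 and Lhx9, transcription factors needed for the gonad to form, overlapped between the stages as well, at 106.1 to 166 against 135.2 to 185 RPKM, 50.98 to 67.1 against 56.7 to 56.9 RPKM, and 42.96 to 45.03 against 39.4 to 62.1 RPKM. Their log2 differences, E13.5 minus E11.5, were 0.31 ± 0.31 for Nr5a1, 0.25 ± 0.28 for Wt1, -0.04 ± 0.25 for Gata4 and 0.17 ± 0.29 for Lhx9 (standard error, limma, n = 2 captures a stage; adjusted p = 0.746, 0.774, 0.973 and 0.883). None of the 13 tested of 15 early gonad factors passed the test, with a list median of 0.17.

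The captures were alike in depth. The median number of genes detected per cell lay between 6505 and 6973 at E11.5 and between 7018 and 7249 at E13.5, and the median depth, an estimate from how the lowest values are spaced, was 2.87M to 3.20M reads per cell. Markers of other cells were low. The summed level of 12 blood and immune markers was 4.79 and 4.73 RPKM at E11.5 and 4.12 and 3.91 RPKM at E13.5, with Ptprc and Lyz2 listed at 0 in all captures. That of 9 mesonephric markers was 12.13 and 13.46 against 6.86 and 10.64 RPKM, and that of 9 endothelial markers 9.60 and 8.17 against 18.02 and 12.004 RPKM, with Cldn5 and Tie1 at 0. The sum of 10 germ cell markers was 3.78 and 2.43 against 6.95 and 14.9 RPKM, with Sycp3 the largest part at E13.5 (4.83 and 14.31 RPKM), while Ddx4 and Pou5f1, which define germ cells, were at 0. The first 2 sums were thus lower and the last 2 higher at E13.5 without overlap, and their part in the results was not tested. A Y-linked transcript was seen in 2 cells of each E11.5 capture, in 2 of the first and 0 of the second E13.5 capture.

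Between the stages, 15 genes changed. Of 13903 genes tested, 9 rose (0.0647%) and 6 fell (0.0432%) at an adjusted p under 0.05 (limma on log2(mean RPKM + 1), Benjamini-Hochberg). The rises described here, 8 genes in all, were of the activin inhibitor Fst and of Dcaf12l1, a relative of a ubiquitin ligase adaptor. The others were genes of the tight junction, the cytoskeleton, metal binding and secreted proteins. The falls were led by Mc2r, Nup62cl, Adh1 and Asb4. At an unadjusted p under 0.05, 1041 genes were higher (7.49%) and 711 lower (5.11%), and the median over all genes was 0.02. Both E13.5 captures were above both E11.5 captures in 3138 genes (22.6%) and below them in 2947 (21.2%).

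The calls rest on 2 captures a stage and on the fit. None of the 14 genes described here was called without the first or the second E11.5 capture, and without the first or the second E13.5 capture 0 genes of the whole table were, at 1245 and 1364 genes with an unadjusted p under 0.05. Without the 6 cells that held a Y-linked transcript Asb4 was the only one of the 14 called. In all 20 alternative settings each of the 14 genes kept its direction, and each was called in 5 to 10 of them.

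**Figure D1:**
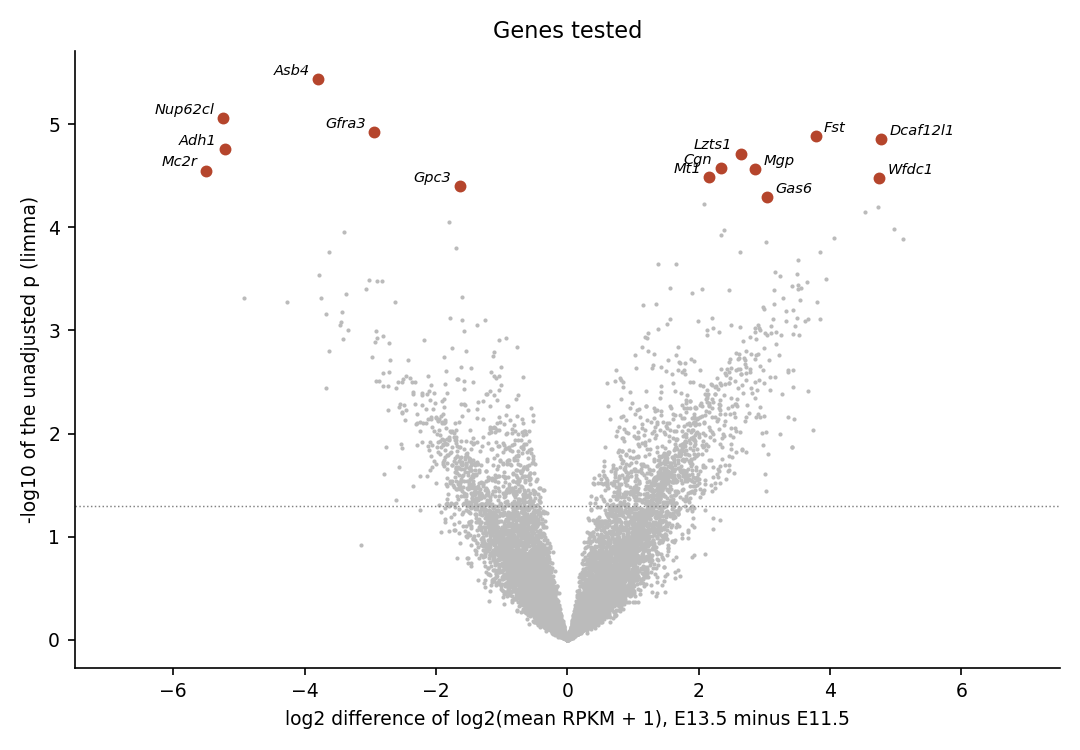
Each point is 1 gene tested, with the log2 difference between stages (E13.5 minus E11.5, on log2(mean RPKM + 1)) on the x axis and -log10 of the unadjusted limma p on the y axis. The 14 genes with an adjusted p under 0.05 that are described here are coloured and named, with Dcaf12l1 farthest right of these at 4.78 and Mc2r farthest left at -5.51; the dotted line is an unadjusted p of 0.05.

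Fst, follistatin, binds activin and keeps it from its receptors (chr13:114452290-114458951, minus strand). It stood at 2.82 and 3.64 RPKM at E11.5 and at 54.7 and 59.4 RPKM at E13.5, which was 17.7-fold higher, with no overlap (log2 difference 3.78 ± 0.35, limma adjusted p = 0.0325; 0.00313 to 0.543 over the alternatives). At a level of at least 10 RPKM, called carried from here on, it was in 5.7% of the cells of both E11.5 captures and in 39.6% and 35.8% at E13.5. The share of cells was thus higher at E13.5. The median level in carrying cells was higher too, at 105.8 and 119.1 RPKM over 21 and 19 cells. At E11.5 it was 35.7 and 68.3 RPKM, but over only 3 cells in each capture.

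3 further rises were of proteins inside the cell. Cgn, cingulin, ties tight junctions to the cytoskeleton (chr3:94760069-94786492). Its means were 32.5 and 44.5 RPKM against 179 and 215 RPKM, 5.12-fold higher (log2 difference 2.34 ± 0.24, limma adjusted p = 0.0354). It was the most widely carried of the risen genes, in 34% of the cells of both E11.5 captures and in 71.7% and 77.4% of those at E13.5. Lzts1, a leucine zipper protein that associates with microtubules (chr8:69132669-69184225), was at 16.7 and 21.1 against 136.4 and 109.8 RPKM (log2 difference 2.64 ± 0.26, limma adjusted p = 0.0335). Its share of cells went from 15.1% and 24.5% to 62.3% in both E13.5 captures. Dcaf12l1, an X-linked relative of a ubiquitin ligase adaptor (chrX:44786570-44790197), was near 0 at E11.5, at 0.720 and 0.501 RPKM, and at 47.3 and 39.3 RPKM at E13.5 (log2 difference 4.78 ± 0.45, limma adjusted p = 0.0325).

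Secreted proteins made up a further part of the rises. Gas6, the ligand of the TAM receptor kinases (chr8:13465374-13494490), was at 5.14 and 8.32 RPKM at E11.5 and at 66.3 and 56.6 RPKM at E13.5 (log2 difference 3.04 ± 0.35, limma adjusted p = 0.0470). Mgp, a matrix protein that inhibits calcification (chr6:136872435-136875823), was at 9.37 and 8.93 against 82.7 and 63.5 RPKM (log2 difference 2.86 ± 0.30, adjusted p = 0.0354). Wfdc1, a secreted protein with a protease inhibitor fold (chr8:119666365-119688222), was at 0.136 RPKM in 1 E11.5 capture and listed at 0 in the other, against 26.2 and 29.5 RPKM (log2 difference 4.75 ± 0.51, adjusted p = 0.0354). It was carried at 10 RPKM by 0 of 53 cells in each E11.5 capture, which allows a share of up to 5.66%, and by 24.5% and 15.1% at E13.5. Its rise is thus that of a minority of cells.

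Mt1, a metallothionein that binds zinc and copper (chr8:94179082-94180327), differed from the other rises in how it rose. The means were 44.7 and 49.7 RPKM against 251 and 184 RPKM (log2 difference 2.16 ± 0.23, limma adjusted p = 0.0354). The share of cells moved little, from 30.2% and 41.5% to 49.1% in both E13.5 captures, while the median level in carrying cells went from 64.5 and 93.6 to 231 and 190 RPKM. The highest cell gave 22.96% of the sum in each E13.5 capture. Of 18 tested immediate early genes, which tissue dissociation can raise, 6 were also higher and 0 lower at an unadjusted p under 0.05. Over all genes those shares were 7.49% and 5.11%. The immediate early list had a median of 0.69 and 0 called members (limma). The summed level of these genes was 1260 and 1374 RPKM at E11.5 and 1855 and 3220 RPKM at E13.5. Their part in the rise of Mt1 was not tested.

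**Figure D2:**
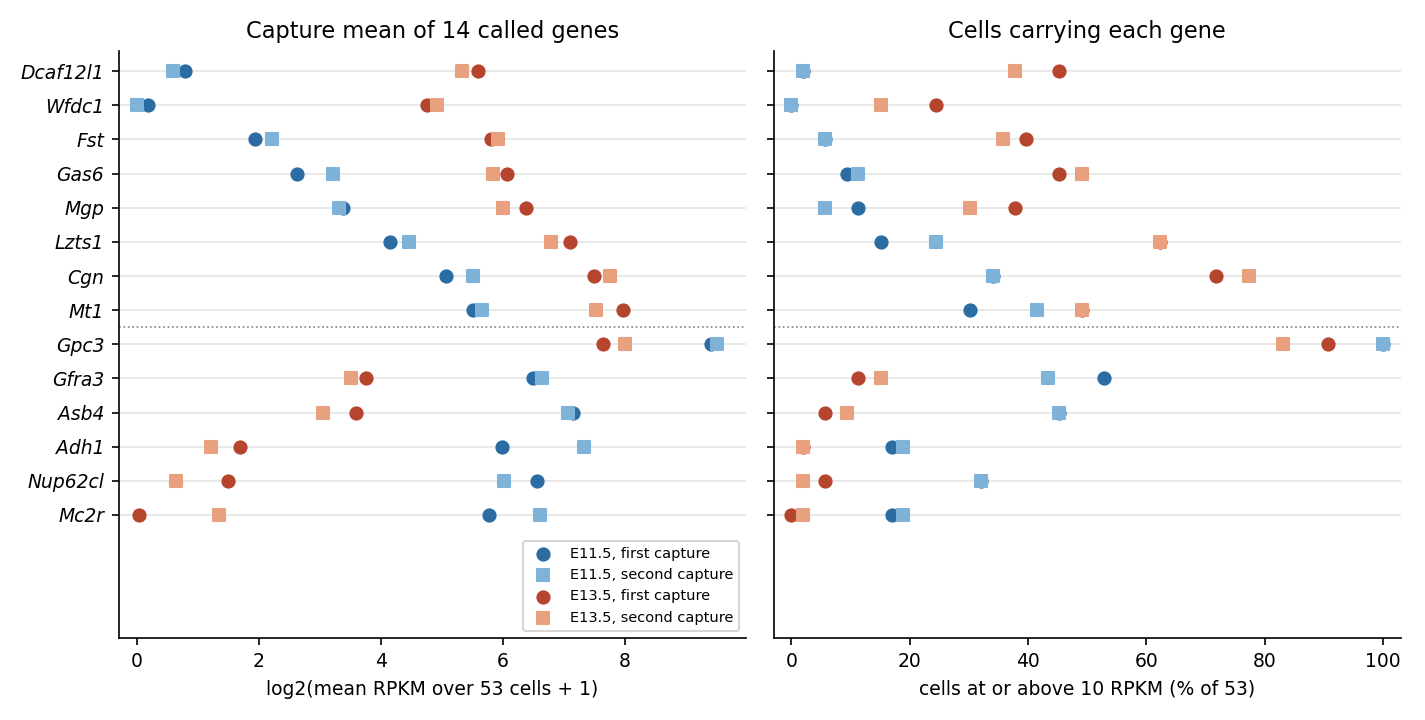
The 14 called genes described here, with the capture mean on a log2(RPKM + 1) scale on the left and the percent of the 53 cells of a capture at or above 10 RPKM on the right. Blue points are the 2 E11.5 captures and red points the 2 E13.5 captures; for every gene above the dotted line both red points lie right of both blue points, and below it left of them, in both panels.

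Of the falls, Mc2r spanned the widest range. It encodes the receptor for adrenocorticotropic hormone (chr18:68406907-68429320). Its capture means were 53.8 and 97.1 RPKM at E11.5 and 0.0188 and 1.55 RPKM at E13.5 (log2 difference -5.51 ± 0.58, limma adjusted p = 0.0354; 0.00520 to 0.543 over the alternatives). At E11.5 it was carried by a minority, 9 and 10 of 53 cells, and those cells had high medians of 254 and 369 RPKM. At E13.5 it was at 10 RPKM or more in 0 of 53 cells of the first capture, which allows a share of up to 5.66%, and in 1 of the second. Mc2r is also a marker of the adrenal cortex, which arises beside the gonad. Of the 6 adrenal markers, Cyp21a1, Cyp11b1 and Nov were listed at 0 in all 4 captures, Hsd3b6 was seen in 1 E11.5 capture (6.58 RPKM) and Akr1b7 in both (0.190 and 9.45 RPKM). The summed level of the list was 60.6 and 106.5 RPKM at E11.5 and 0.0188 and 1.55 RPKM at E13.5, nearly all of it Mc2r, and the part of adrenal cells in its fall was not tested.

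Asb4, a substrate adaptor of a ubiquitin ligase (chr6:5383386-5433022), was the fall with the lowest adjusted p. It was at 140.8 and 133.7 RPKM at E11.5 and at 11.1 and 7.28 RPKM at E13.5, 14.97-fold lower (log2 difference -3.79 ± 0.29, limma adjusted p = 0.0252; 0.00132 to 0.543 over the alternatives). The share of cells was 45.3% in both E11.5 captures (24 of 53, exact 95% interval 31.6 to 59.6%) and 5.66% and 9.43% at E13.5 (1.18 to 15.7% and 3.13 to 20.7%). Asb4 and Mc2r had been named for early cells in an earlier analysis of these same data, so their direction here is no independent evidence.

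Adh1 and Nup62cl were each carried by a part of the E11.5 cells and by few cells at E13.5. Adh1, an alcohol dehydrogenase that can oxidise retinol (chr3:138260991-138290698), was at 62.2 and 160.4 RPKM against 2.22 and 1.32 RPKM (log2 difference -5.21 ± 0.51, limma adjusted p = 0.0335), in 17% and 18.9% of cells against 1.9% in both E13.5 captures. In the first E11.5 capture 1 cell gave 58.6% of its sum. Nup62cl, an X-linked relative of a nuclear pore protein (chrX:140006805-140062712), was at 93.9 and 64.1 RPKM against 1.80 and 0.552 RPKM (log2 difference -5.24 ± 0.46, adjusted p = 0.0325), in 32.1% of the cells of both E11.5 captures. Its E13.5 share was 5.7% and 1.9%.

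Gfra3 and Gpc3 were broader. Gfra3, a co-receptor for the neurotrophic factor artemin (chr18:34689898-34720387), was at 89.2 and 99.2 RPKM against 12.45 and 10.4 RPKM (log2 difference -2.94 ± 0.27, limma adjusted p = 0.0325), in 52.8% and 43.4% of cells against 11.3% and 15.1%. Gpc3, a heparan sulfate proteoglycan of the cell surface on the X chromosome (chrX:52272426-52613950), was the most abundant gene called. It stood at 681 and 732 RPKM at E11.5 and at 200.2 and 257 RPKM at E13.5, 3.10-fold lower (log2 difference -1.64 ± 0.18, adjusted p = 0.0399). All 53 cells of both E11.5 captures carried it, and 48 and 44 of 53 at E13.5. The medians in carrying cells were 584 and 697 against 150 and 226 RPKM.

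**Figure D3:**
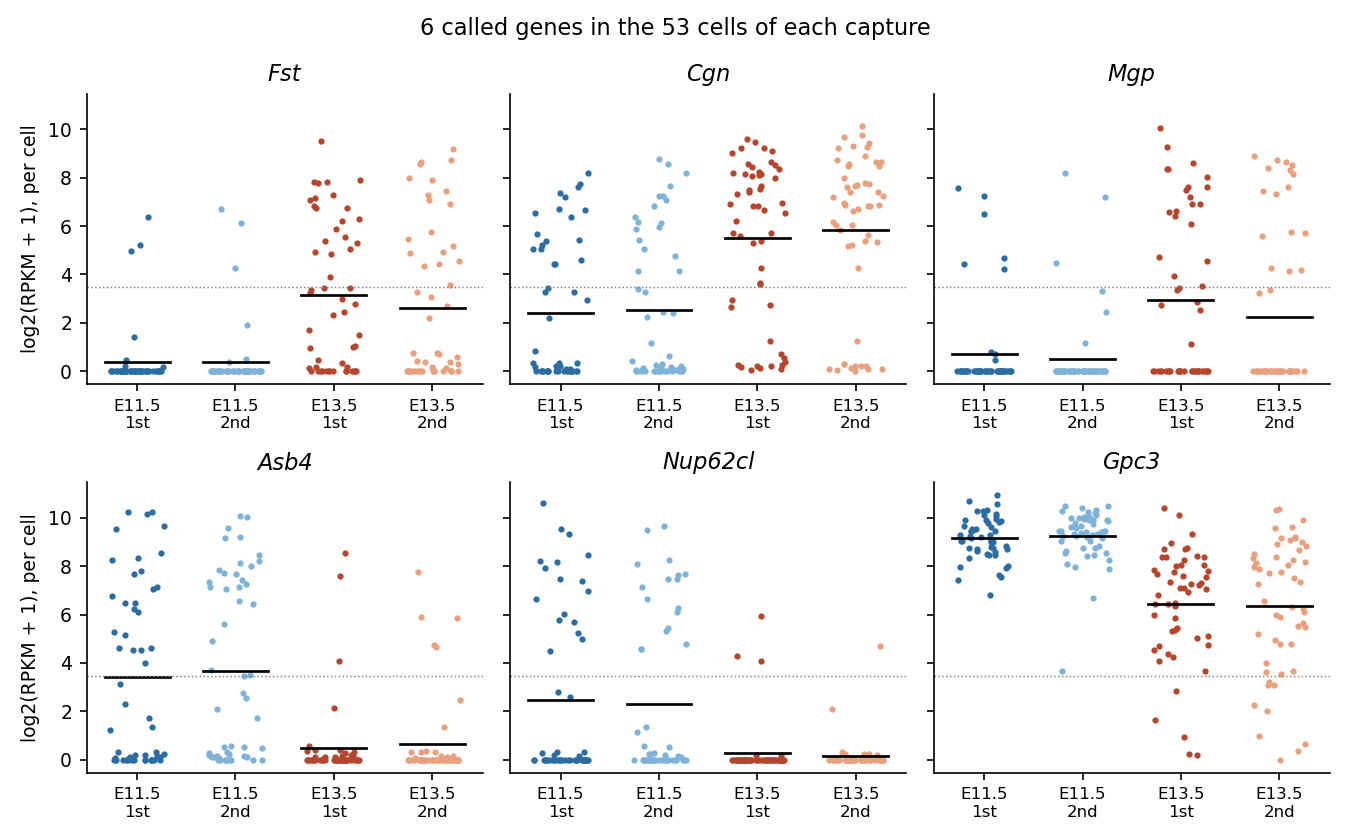
Each point is 1 cell, 53 per capture, on a log2(RPKM + 1) scale; the black bar is the mean of these log values and the dotted line marks 10 RPKM. Fst and Mgp appear in a part of the E13.5 cells, Cgn in most of them, Asb4 and Nup62cl fall to a few cells, and Gpc3 spreads downwards at E13.5, with a part of the cells still in the range of the E11.5 cells.

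The E13.5 cells with Fst shared other features. This description was chosen after the values were seen, and cells of 1 capture are not replicates, so it has no test. In the first E13.5 capture 18 of the 38 cells with Cgn also carried Fst, against 3 of the 15 without, and in the second 19 of 41 against 0 of 12. Of the 21 and 19 cells with Fst, 12 and 11 carried Runx1, against 8 of 32 and 11 of 34 without Fst. Pdgfra, a growth factor receptor of interstitial progenitors, showed the opposite distribution, in 2 of 21 against 14 of 32 cells and in 2 of 19 against 9 of 34. Top2a, the topoisomerase of dividing cells, was carried by 1 cell with Fst in each capture and by 9 of 32 and 11 of 34 without. Of the cells with Mgp, 7 of 20 and 6 of 16 carried Fst, against 14 of 33 and 13 of 37 without Mgp, a lower share in the first capture and a higher one in the second. Nr2f2, the orphan nuclear receptor of interstitial cells, was carried by most E13.5 cells, 84.9% and 73.6%. It was in 19 of 20 and 16 of 16 cells with Mgp, against 26 of 33 and 23 of 37 without. With Fst it was in 16 of 21 and 12 of 19 cells, against 29 of 32 and 27 of 34 without. Dcn, another interstitial marker, was in 8 of 20 and 6 of 16 cells with Mgp, against 13 of 33 and 8 of 37 without. Runx1 was in 8 of 20 and 7 of 16 cells with Mgp, against 12 of 33 and 15 of 37 without. For Foxl2 these counts were 5 of 20 and 1 of 16, against 5 of 33 and 4 of 37.

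At E11.5 the genes that fell were carried by partly different cells. Of the 24 cells with Asb4 in each capture, 5 and 6 carried Mc2r, against 4 and 4 of the 29 without. Of the 9 and 10 cells with Mc2r, 5 and 4 carried Star, the cholesterol transporter of steroid-producing cells, against 5 of 44 and 5 of 43 of the others. Nup62cl was in 6 and 4 of the 24 cells with Asb4 and in 11 and 13 of the 29 without. All 17 cells with Nup62cl carried Wt1 in each capture, against 31 and 23 of the 36 without.

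Among pregranulosa markers, 1 of 16 tested members passed the test, Fst. At an unadjusted p under 0.05, 12 were higher and 1 lower, against 7.49% and 5.11% of all genes, and the list median was 1.58 against 0.02 for all genes. Like the other lists here, this one was chosen with earlier results of these data known, so its counts are no independent evidence. Foxl2, the transcription factor that maintains ovarian identity, was at 0.696 RPKM and listed at 0 in the E11.5 captures and at 16.2 and 5.33 RPKM at E13.5, without overlap (log2 difference 3.004 ± 0.69, limma adjusted p = 0.188). It was carried by 18.9% and 9.4% of the cells at E13.5. Runx1, a transcription factor of early supporting cells, was at 3.12 and 1.43 against 10.48 and 10.8 RPKM (log2 difference 1.88 ± 0.53, adjusted p = 0.249). Kitl, the ligand of the receptor Kit on germ cells, was at 75.97 and 22.5 against 140.8 and 123.2 RPKM (log2 difference 1.64 ± 0.50, adjusted p = 0.275). Irx3, a homeobox gene of pregranulosa cells, was at 0 and 0.0228 against 12.7 and 8.71 RPKM (log2 difference 3.51, adjusted p = 0.111). When log2 values were averaged over cells instead, Foxl2, Runx1 and Kitl passed, at limma adjusted p values of 0.0289, 0.0207 and 0.0167. Each passed in this 1 alternative setting only, and the setting called 272 genes against 15 in the main fit.

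The Wnt side of the pathway was uneven. Of 19 Wnt and R-spondin ligands 9 were tested, with 0 called in limma and a median of 1.301. Of the 9, 5 were higher and 0 lower at an unadjusted p under 0.05, against 7.49% and 5.11% of all genes. Rspo1, the ligand that strengthens Wnt signalling in the early ovary, was at 6.78 and 13.54 against 42.1 and 17.1 RPKM (log2 difference 1.39 ± 0.53, limma adjusted p = 0.346). Wnt4 itself was at 14.1 and 14.5 against 15.04 and 23.7 RPKM (log2 difference 0.38 ± 0.37, adjusted p = 0.741). The 2 E13.5 captures differed from each other by more than the lower of them differed from E11.5. Wnt6, Wnt9a and Wnt2b were higher, with log2 differences of 1.88, 2.07 and 2.10 (adjusted p = 0.217, 0.250 and 0.253). Of 22 tested receptors, inhibitors and targets, 2 were higher and 3 lower at an unadjusted p under 0.05, against 7.49% and 5.11% of all genes, and 0 were called in limma. The receptor Lgr5 (log2 difference 3.44, adjusted p = 0.132) and the target Axin2 (1.34, adjusted p = 0.376) were the higher ones, and the secreted inhibitors Sfrp1, Sfrp2 and Dkk1 (-1.12, -1.55 and -1.50) the lower ones. Dkk1 was low even at E11.5, at 2.02 and 2.46 RPKM, and was carried by only 1.9% of the cells of each E11.5 capture.

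Surface epithelium genes leaned to higher values at E13.5, though none was called. All 11 tested members had a positive log2 difference, against 51.6% of all genes. 7 of them were at an unadjusted p under 0.05, against 7.49% of all genes higher at that p. The list median was 1.60 against 0.02 for all genes, with 0 called in limma. Lgr5, also counted above among the Wnt receptors, is 1 of these 7. Upk1b, a uroplakin of the mesothelial surface, was at 0.817 and 3.29 against 41.04 and 15.3 RPKM (log2 difference 3.23, adjusted p = 0.168), and Krt19, a keratin of the same cells, at 3.46 and 1.001 against 18.5 and 9.94 RPKM (2.29, adjusted p = 0.232). Krt18 was 103.6 and 110.9 RPKM at E13.5 against 49.8 and 53.6 RPKM (1.04, adjusted p = 0.167). Msln and Cdh1 did not reach the level needed for a test.

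Interstitial markers went both ways, with 0 called in limma and a median of 0.00. Of 17 tested, 3 were higher and 4 lower at an unadjusted p under 0.05, against 7.49% and 5.11% of all genes. Nr2f2 was at 134.4 and 169.4 against 95.84 and 83.6 RPKM (log2 difference -0.75 ± 0.21, adjusted p = 0.250), and its relative Nr2f1 at 29.7 and 21.9 against 2.08 and 3.12 RPKM (-2.90, adjusted p = 0.111). The matrix proteoglycan Dcn was higher, at 13.2 and 27.3 RPKM against 70.4 RPKM or more (2.13, adjusted p = 0.139). Of 29 tested matrix genes 7 were higher and 2 lower at an unadjusted p under 0.05, against 7.49% and 5.11% of all genes, with 0 called. The collagen chains Col6a1 (2.997, limma adjusted p = 0.130) and Col6a3 (2.21, adjusted p = 0.230) led the higher ones. Steroid synthesis genes held 1 call among 10 tested, Mc2r. Of these 10, 1 was higher and 3 lower at an unadjusted p under 0.05, against 7.49% and 5.11% of all genes. Their median was 0.03, with 5 positive and 5 negative log2 differences. The higher one was Hsd17b1 (1.43, limma adjusted p = 0.341), at only 1.52 and 2.98 RPKM at E13.5. It was carried by 1.9% of the cells of each E13.5 capture. Cyp11a1, which makes the first cut in cholesterol, was at 16.3 and 14.97 RPKM at E11.5 and at 0.272 and 1.02 RPKM at E13.5 (-3.38, adjusted p = 0.115), and Star at 21.9 and 19.2 against 6.28 and 3.82 RPKM (-1.86, adjusted p = 0.188).

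The genes of the Lin28 and Hmga group, RNA-binding and chromatin proteins typical of early embryonic cells, held no call. Of 9 tested members 5 were lower and 0 higher at an unadjusted p under 0.05, against 5.11% and 7.49% of all genes, with a median of -1.09 and 0 called in limma. Hmga2, a chromatin protein of proliferating embryonic cells, was at 273 and 223 RPKM at E11.5 and at 63.7 and 122.5 RPKM at E13.5 (log2 difference -1.47, adjusted p = 0.180). Lin28b, which blocks maturation of let-7 RNAs, was at 4.39 and 1.53 against 0.0303 and 0.467 RPKM (-1.59, adjusted p = 0.342).

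**Figure D4:**
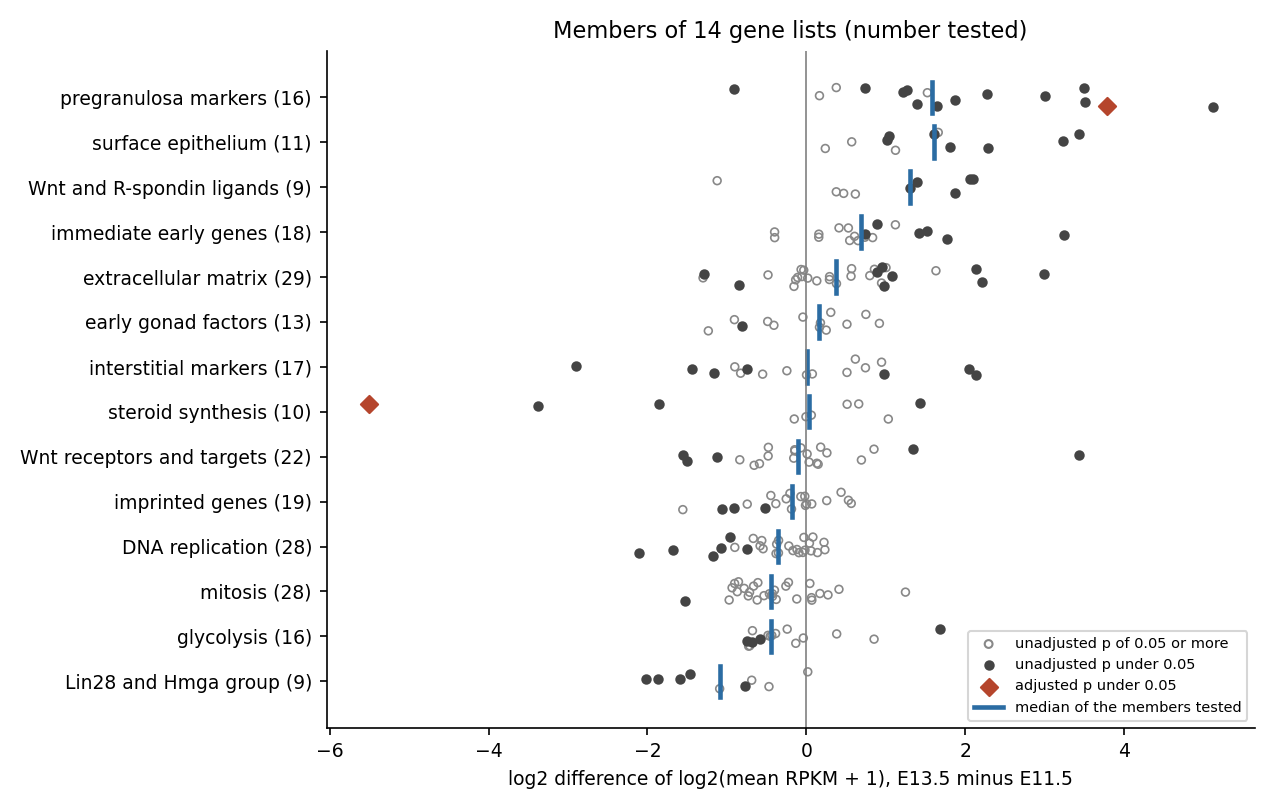
Points are the tested members of 14 gene lists (number tested in brackets), placed by their log2 difference on log2(mean RPKM + 1), E13.5 minus E11.5; filled points have an unadjusted p under 0.05, diamonds an adjusted p under 0.05, and the blue bar is the list's median. Medians run from 1.60 for surface epithelium genes to -1.09 for the Lin28 and Hmga group, and the only called members shown are Fst and Mc2r.

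No gene of the cell cycle lists passed the test. Of 28 DNA replication genes 6 were lower and 0 higher at an unadjusted p under 0.05, with a median of -0.35, and of 28 mitosis genes 1 was lower and 0 higher, with a median of -0.44, against 5.11% lower and 7.49% higher over all genes; 0 were called in limma in either list. Both E13.5 captures lay below both E11.5 captures for 9 and 12 members, against 21.2% of all genes. Ccne1, the cyclin of entry into S phase, was at 11.6 and 19.7 against 2.39 and 3.13 RPKM (log2 difference -2.11, adjusted p = 0.199). Rrm2, which makes deoxynucleotides, was at 77.9 and 133.7 against 43.1 and 46.2 RPKM (-1.18, adjusted p = 0.217). Top2a was at 51.1 and 45.6 against 39.03 and 34.9 RPKM (-0.38 ± 0.25, adjusted p = 0.588), while Cdk1, the kinase that drives mitosis, overlapped at 25.02 and 20.7 against 33.3 and 19.9 RPKM (0.17 ± 0.35, adjusted p = 0.905). Cdkn1b, an inhibitor of these kinases, was at 2.83 and 3.20 RPKM at E11.5 but at 23.95 RPKM in the first and 4.33 RPKM in the second E13.5 capture (1.52 ± 0.76, adjusted p = 0.467), so that 1 capture gave most of that difference.

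Promoters of cell cycle genes can hold known control letters. The 3 shown are of genes that were lower at an unadjusted p under 0.05. They are Mcm3 and Mcm2, parts of the replicative helicase, and Bub1, a kinase of the spindle checkpoint. Mcm3 was at 62.05 and 67.3 against 34.1 and 42.7 RPKM, Mcm2 at 43.5 and 79.8 against 29.7 and 25.5 RPKM, and Bub1 at 16.7 and 16.4 against 8.95 and 2.74 RPKM. The sequences are those of RefSeq (GRCm38.p6), from 250 bases before to 50 after the start, written 5′ to 3′ on the gene's strand: chr1:20820263-20820562 minus for Mcm3, chr6:88898731-88899030 minus for Mcm2 and chr2:127831810-127832109 minus for Bub1. Capitals mark, on either strand, the CCAAT box, the letters of the cell cycle homology region, in the form TTTGAA as well as in the form TTCGAA, and the letters bound by E2F factors. The first E2F form searched was TTTGGCG, the second such form was TTTCGCG and the third such form was TTTCCCG.
Mcm3: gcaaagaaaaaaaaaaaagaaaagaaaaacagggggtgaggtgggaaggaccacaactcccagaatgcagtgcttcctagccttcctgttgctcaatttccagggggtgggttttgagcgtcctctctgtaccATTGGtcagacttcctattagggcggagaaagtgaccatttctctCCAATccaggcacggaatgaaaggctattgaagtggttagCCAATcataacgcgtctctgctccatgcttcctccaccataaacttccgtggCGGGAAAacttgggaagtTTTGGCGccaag
Mcm2: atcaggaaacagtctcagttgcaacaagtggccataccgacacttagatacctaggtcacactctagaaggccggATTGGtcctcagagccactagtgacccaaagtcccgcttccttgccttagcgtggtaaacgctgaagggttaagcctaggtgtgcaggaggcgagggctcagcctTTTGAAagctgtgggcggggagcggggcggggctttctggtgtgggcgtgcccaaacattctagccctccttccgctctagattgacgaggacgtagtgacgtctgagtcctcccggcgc
Bub1: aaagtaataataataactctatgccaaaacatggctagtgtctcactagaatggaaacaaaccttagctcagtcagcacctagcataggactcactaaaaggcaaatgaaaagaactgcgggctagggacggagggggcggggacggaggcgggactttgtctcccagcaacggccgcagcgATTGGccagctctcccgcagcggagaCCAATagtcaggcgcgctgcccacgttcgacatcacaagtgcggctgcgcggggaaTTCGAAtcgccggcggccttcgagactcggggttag
Mcm3 holds 3 CCAAT boxes and 2 E2F matches, Mcm2 and Bub1 hold CCAAT boxes and 1 cell cycle homology match each, and no match overlaps another. Among the 7 genes of both lists at an unadjusted p under 0.05, 5 held CCAAT, 3 the cell cycle homology letters and 2 the E2F letters, while Ccne1 held none of these. Over the 23 DNA replication genes with a RefSeq promoter, 11 held E2F letters (47.8%), against 6.38% of all 27025 genes. The cell cycle homology letters were in 4 of the 23 (17.4%) and CCAAT in 13 (56.5%), against 21.7% and 41.1% of all genes. Over the 22 such mitosis genes, 17 held the cell cycle homology letters (77.3%) and 18 CCAAT (81.8%), against 21.7% and 41.1% of all genes. E2F letters were in 4 of the 22 (18.2%), against 6.38% of all genes. These matches describe the letters in the window and carry no test.

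Several differences as large as those of called genes missed the threshold. Among the 10 largest rises by the naming rule, Gatm, a creatine synthesis enzyme, was at 2.87 and 0.599 against 158.1 and 45.6 RPKM (log2 difference 5.11 ± 0.68, limma adjusted p = 0.0727), in 66% and 28.3% of E13.5 cells. Clu, a secreted chaperone, was at 3.996 and 7.35 against 186 and 51.2 RPKM (3.94 ± 0.60, adjusted p = 0.111). Ly6d, a surface antigen, was at 0 and 0.191 against 18.99 and 30.8 RPKM (4.53 ± 0.55, adjusted p = 0.0546), but 1 cell gave 99.96% of its sum in the first E13.5 capture and 57.8% in the second. The cystatin Cst12, the sulfotransferase Hs3st1, the small GTPase Arl4d and the matrix protein Egfl6 had log2 differences of 4.97, 4.07, 3.85 and 3.84 (adjusted p = 0.0704, 0.0727, 0.0810 and 0.138).

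Among the largest falls that did not pass were Pnliprp2, a lipase, at 13.6 and 75.8 against 0.210 and 0.00922 RPKM (-4.92 ± 0.81, limma adjusted p = 0.119), and Shisa3, at 8.51 and 23.3 against 0.196 and 0.179 RPKM (-3.68 ± 0.64, adjusted p = 0.137). Both were also named in the earlier analysis of these data. G6pc2, a glucose phosphatase, the cystatin Cst9 and Nr1h5, a nuclear receptor, had log2 differences of -4.27, -3.78 and -3.75 (adjusted p = 0.121, 0.111 and 0.119). Ibsp, bone sialoprotein, was at 50.3 and 7.34 against 0.566 and 0.678 RPKM (-3.67 ± 0.86, adjusted p = 0.193), and 1 cell gave 92.1% of its sum in the first E11.5 capture.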

How the data were processed

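Single-cell RNA-seq libraries (SMARTer cDNA on C1 chips, Nextera XT, no molecular identifiers named, per the labels' protocols) were used as deposited by the authors in 1 table of RPKM values per gene and cell. The table names no unit; RPKM was inferred, since values times gene length fell on whole multiples of 1 read (within 0.02) for a median of 73.1% of low values per cell, and gives no counts, so reads were only estimated. Per the submitters' processing notes the build was GRCm38.p3 (mm10); aligner, counter, strand and annotation: not given in the sources used here. Of 43347 gene names 27 were spreadsheet dates and were left out; positions came from GENCODE vM21 (GRCm38; 37827 names matched).

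RPKM were averaged over all 53 cells of a capture; no cell was removed, no 2 of the 212 cells held identical values and no doublet caller was run. limma 3.58.1 (R 4.3.3) with an intensity trend was fitted to log2(mean RPKM + 1) of 2 against 2 captures for genes of at least 1 RPKM in at least 2 captures, which understates changes of low genes; it was tested on simulated data. The replicate is the capture; whether captures came from separate litters is not stated, so p-values reflect capture-to-capture spread that may be technical. Shares of cells at or above 10 RPKM could not be thinned to equal depth and have exact 95% binomial intervals, and a share of 0 an upper limit of 3 cells of the total, both covering counting error only. Some results are not reported here. The named genes were the called genes, the 10 largest non-overlapping differences each way at an unadjusted p under 0.05 without provisional names, called members of 33 lists and 14 fixed genes; other members named were chosen after their values were seen. The members and lists were chosen with earlier results of these data known. Alternatives changed the pseudocount, filter, scaling, averaging, spread and captures; those leaving out cells with Y-linked transcripts or with over 1.5 times the median of detected genes were added after seeing the data.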

Additional observations from a re-analysis of the deposited data

How the results depend on the processing

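With 9 genes called higher and 6 lower, the numbers of calls (higher and lower) were 1 and 0 with a pseudocount of 0.1 RPKM, 26 and 12 with a filter of 1 RPKM in 1 capture, 39 and 20 with a filter of 10 RPKM in 2 captures, 198 and 74 with the mean of log2 over cells, and 1 and 1 without the 6 cells that held a Y-linked transcript. They were 0 and 0 in limma with no filter on level (1964 genes with an unadjusted p under 0.05), with the highest cell left out (1767), with no intensity trend (1631) and with a series term over 12 captures (828). Leaving out each capture in turn gave 0 to 1 genes higher and 0 to 0 lower. Scaling cells to equal totals, equalising medians, quantile normalization, robust moderation, a spread shared over 11 captures, and leaving out cells with few or with many detected genes kept both counts within 1.5 times. Fewer genes or captures are tested by construction under the stricter filter and without a capture; the cause of the other differences was not tested. Of 280 values of the 14 called genes described under the 20 alternatives, 45.7% stayed called, 54.3% kept their direction without passing and 0 turned direction. The median over all genes moved from 0.02 to -0.07 when medians were equalised. No paired analysis was possible because the captures of the 2 stages share no replicate, animal or batch number that would pair them. The depth behind single values is unknown beyond an estimate.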
